A study of Mus musculus with 22 samples.

Results

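The transcripts described here were those of 8 mouse genes that move zinc and manganese across membranes or bind metal inside cells: the exporters Slc30a10 and Slc30a1, the importers Slc39a4, Slc39a5, Slc39a8 and Slc39a14, and the metallothioneins Mt1 and Mt2. They were taken from a table of 46078 genes by symbol, and all 8 were found. The set was chosen by the CPM of Slc30a10, whose low level in diseased colon was already known from these libraries. Its values across the 3 groups are therefore given as a description, without a test, and counts of calls are given over the other 7 genes. Only the closing section on processing counts calls over all 8, and nothing is read there from calls of Slc30a10. The other 7 genes were included as relatives or partners in metal handling, and their tests are those of a fit across all genes.

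RNA was sequenced from the distal colon of 22 mice. The groups were 8 C57BL/6 mice (4 males and 4 females, 14 weeks old), 7 Winnie mice (3 males and 4 females, 14 weeks old) and 7 Winnie-Prolapse mice (4 males and 3 females, 18 weeks old). Winnie mice carry a missense mutation in Muc2, the gene of the main secreted mucin of goblet cells, and develop colitis without any added agent. The prolapse group is labelled as Winnie animals with prolapse. The mutation is a germline change and is not limited to the epithelium, the labels name no treatment in any group, and the older age of the Winnie-Prolapse mice cannot be told apart from their disease.

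Zinc and manganese are needed as enzyme cofactors, and both are toxic in excess. Proteins of the SLC39 (ZIP) family carry these metals into the cytosol, whereas proteins of the SLC30 (ZnT) family carry them out of the cytosol, across the plasma membrane or into vesicles. Metallothioneins are small cysteine-rich proteins that bind zinc and copper, and their genes are switched on by the zinc-sensing transcription factor MTF1 at short DNA elements called metal response elements. In the intestine, uptake into epithelial cells is a control point for body zinc, and intestinal export of manganese into the lumen is one route by which it leaves the body.

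Libraries held 24.8 to 36.3 M counts. Levels are given as CPM, the deposited counts scaled to the library total, and the largest level that a count of 0 allows (3 counts) was 0.0825 to 0.121 CPM. The summed level of 6 pan-epithelial markers was 8362 to 10045 CPM in C57BL/6, 8899 to 12360 CPM in Winnie and 7096 to 12307 CPM in Winnie-Prolapse, so every library carried epithelial transcripts at a high level. The 7 colonocyte markers summed to a median of 9081 CPM in C57BL/6, 7313 CPM in Winnie and 2777 CPM in Winnie-Prolapse. At an adjusted p under 0.05 and 1.5-fold, 4 of the 7 were lower in Winnie-Prolapse than in C57BL/6, and Krt20, named after its values were seen, was higher in both diseased groups (medians of 663, 1590.3 and 1413 CPM). Without Krt20 the median sums were 8462, 5097 and 1333 CPM. The 7 goblet cell markers had median sums of 12616 CPM (C57BL/6), 9185 CPM (Winnie) and 4791 CPM (Winnie-Prolapse), with 0 of 7 lower in Winnie and 3 in Winnie-Prolapse at the same limit and Agr2, also named after its values were seen, higher in both (483, 1312 and 1187 CPM). Smooth muscle markers also moved with the groups, with median sums of 8315, 3446 and 2208 CPM in that order, and 6 of 6 were lower in both diseased groups at an adjusted p under 0.05. The part of these tissues in the results below was not tested. In whole tissue, fewer cells of a type and less RNA per cell cannot be told apart. Winnie-Prolapse replicate 6 stood apart from all other libraries: 6 milk protein genes of the mammary gland summed to 179624 CPM in it and to 1.85 to 54.2 CPM elsewhere. C57BL/6 replicate 7 also stood apart from its group, with 4.17 CPM over 7 neutrophil markers against 243 to 359 CPM in the other C57BL/6 libraries, a list dominated by Ly6g. Where leaving out either library moved a named gene's fold change by over 1.5 times or changed its call in Winnie-Prolapse against C57BL/6, both values are given.

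The sequences before the start sites of the exporters and the metallothioneins are shown because these are the members whose transcription is best known to answer to metals, with Slc30a10 beside them as the member that stood out here. RefSeq windows (GRCm38.p6) were matched for 6 of the 8 genes. Both strands of the 300 bases around each start site, of which 50 follow it, were searched for the core letters of a metal response element, TGCACNC or TGCGCNC. The 250 bases before the start are printed on the gene's strand, and capitals mark the matches, including those read on the other strand. The windows were chr1:185454598-185454847 for Slc30a10, chr1:191906531-191906780 for Slc30a1, chr8:94178839-94179088 for Mt1 and chr8:94172368-94172617 for Mt2, all on the plus strand.
Slc30a10: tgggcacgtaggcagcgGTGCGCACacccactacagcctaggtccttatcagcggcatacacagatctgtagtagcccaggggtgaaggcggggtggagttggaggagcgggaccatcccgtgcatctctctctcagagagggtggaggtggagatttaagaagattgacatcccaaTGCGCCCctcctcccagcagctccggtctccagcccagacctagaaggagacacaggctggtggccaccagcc
Slc30a1: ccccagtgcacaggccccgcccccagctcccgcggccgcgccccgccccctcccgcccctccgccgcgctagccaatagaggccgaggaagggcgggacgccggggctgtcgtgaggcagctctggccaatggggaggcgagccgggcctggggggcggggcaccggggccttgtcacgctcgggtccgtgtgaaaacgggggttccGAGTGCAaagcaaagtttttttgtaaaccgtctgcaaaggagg
Mt1: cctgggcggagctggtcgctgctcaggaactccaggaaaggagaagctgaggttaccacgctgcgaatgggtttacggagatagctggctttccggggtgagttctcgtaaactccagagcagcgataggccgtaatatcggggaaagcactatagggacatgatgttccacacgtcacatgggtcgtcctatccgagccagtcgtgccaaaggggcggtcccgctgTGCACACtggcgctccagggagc
Mt2: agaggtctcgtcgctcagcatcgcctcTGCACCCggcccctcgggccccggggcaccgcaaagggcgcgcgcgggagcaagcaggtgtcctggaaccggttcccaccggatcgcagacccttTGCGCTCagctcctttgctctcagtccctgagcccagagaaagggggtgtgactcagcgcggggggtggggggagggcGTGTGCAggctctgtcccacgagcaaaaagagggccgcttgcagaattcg
The Slc30a10 window held 3 matches, of which a pair on opposite strands overlapped at 233 and 232 bases before the start and 1 lay at 73 bases before it. The Mt2 window held 4 matches, at 223, 128 and 50 bases before the start and 1 at 5 bases after it. The Mt1 window held 3, at 23 bases before the start and 3 and 21 bases after it. The Slc30a1 window held 2, at 43 bases before the start and 31 bases after it. Of 32851 start windows of this length, 25.7% held at least 1 match, 7.11% at least 2, 1.97% at least 3 and 0.517% at least 4. For Slc39a5 and Slc39a8, each with 2 start sites, 1 window of each gene held 1 match and the other held 0. These matches describe letters in the windows and not binding of a factor.

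Per kilobase of exon, the C57BL/6 colon held most Mt1 transcript (median 114 CPM per kb), followed by Slc39a4 (54.5), Mt2 (54.0) and Slc39a5 (35.4). Slc30a1 (8.16), Slc30a10 (4.12), Slc39a14 (4.07) and Slc39a8 (2.18 CPM per kb) formed the lower part of the order. Among neighbours in the order, Slc39a4 and Mt2, Mt2 and Slc39a5, Slc30a10 and Slc39a14, and Slc39a14 and Slc39a8 overlapped in range between libraries. So did Mt1 and Mt2, Slc39a4 and Slc39a5, and Slc30a10 and Slc39a8. The order within these pairs was thus not larger than the spread. In Winnie-Prolapse the order differed at both ends. Mt2 was first (median 223 CPM per kb) with Mt1 behind it (157), their ranges overlapping. This order of the 2 rests on the exon lengths used, 588 bases for Mt2 and 1246 for Mt1, the latter the whole span of the gene. Before division by length Mt1 was above Mt2 in every Winnie-Prolapse library (medians of 196 and 131 CPM, at most 0.738 Mt2 reads per Mt1 read). Slc30a10 was last (0.0518 CPM per kb), below the range of every other gene of the set.

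**Figure D1:**
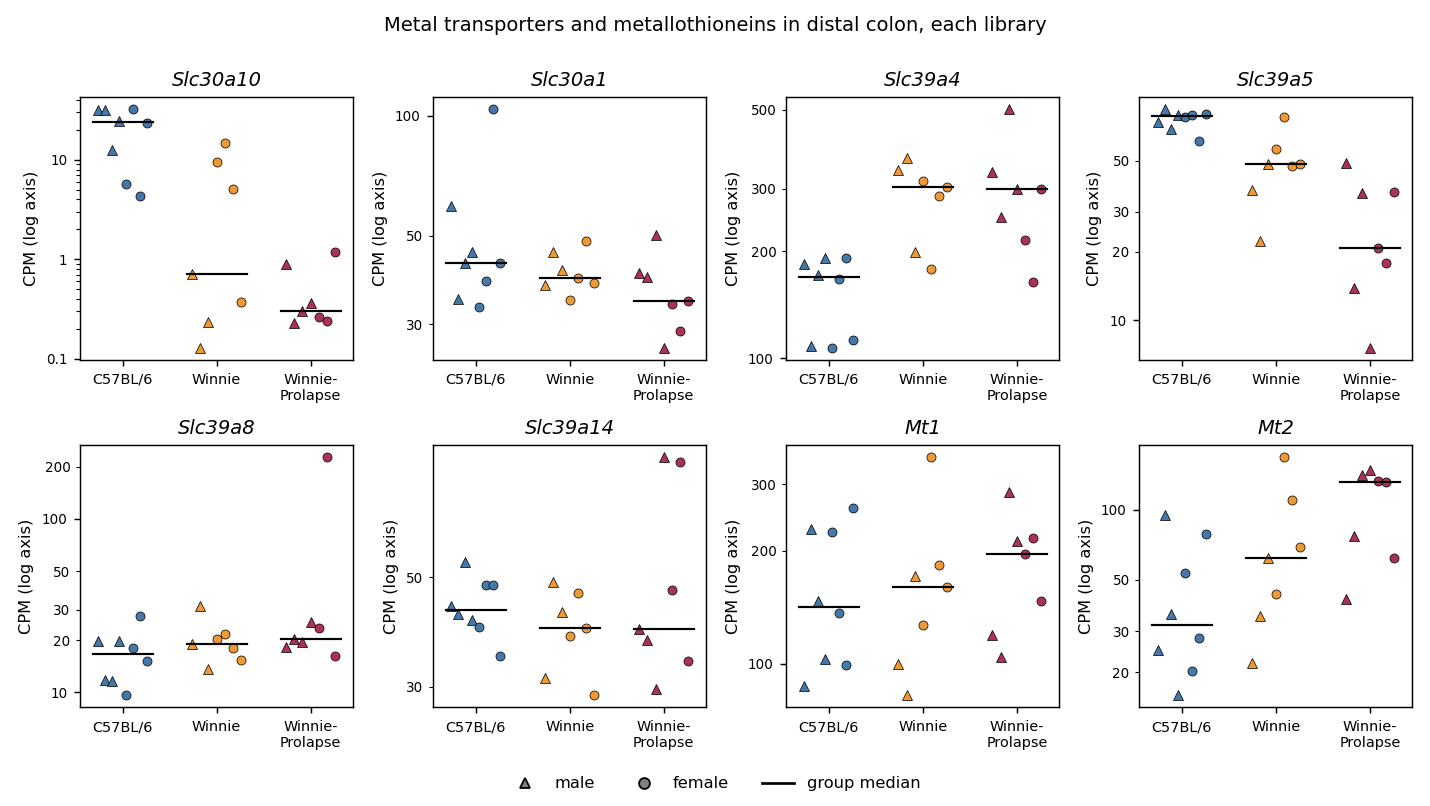
Level of each of the 8 genes in CPM (log axis) in every library, by group; triangles are males, circles are females and bars are group medians. Slc30a10 and Slc39a5 show no overlap between C57BL/6 and Winnie-Prolapse, and a single Winnie-Prolapse library reaches 228 CPM for Slc39a8.

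Slc30a10 (ENSMUSG00000026614, GRCm38 chr1:185454848-185468762, plus strand) encodes a plasma membrane exporter of manganese. Its level in C57BL/6 had a lowest value of 4.35, a median of 24.0 and a highest value of 32.4 CPM. In Winnie the corresponding values were 0.128, 0.715 and 14.7 CPM. In Winnie-Prolapse they were 0.226, 0.303 and 1.18 CPM, which rested on only 6 to 32 reads a library against 120 to 938 reads in C57BL/6. Every Winnie-Prolapse library was thus below every C57BL/6 library, whereas Winnie libraries spread from the Winnie-Prolapse level to the middle of the C57BL/6 range. Mean levels were 20.9 ± 11.8 CPM (SD over 8 C57BL/6 mice), 4.40 ± 5.75 CPM (SD over 7 Winnie mice) and 0.494 ± 0.380 CPM (SD over 7 Winnie-Prolapse mice). Leaving out Winnie replicate 5, the highest of its group, gave 2.69 ± 3.88 CPM over the other 6. Fitted against C57BL/6, the log2 fold change (± SE) of Winnie-Prolapse was -5.30 ± 0.57, a 39.5-fold lower level, and that of Winnie was -2.16 ± 0.83. Between Winnie-Prolapse and Winnie it was -3.15 ± 0.97. The last 2 values moved with the fit: they were -3.57 and -1.66 with limma-voom, -2.82 and -1.83 with sex as a covariate, and -2.82 and -2.50 without Winnie replicate 5. The gene overlaps Gm2061 on the other strand, and the strand setting of the counting is not given in the sources used here.

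The 7 Winnie libraries did not form a single level of Slc30a10. Females of replicates 4, 5 and 6 had 9.59, 14.7 and 5.09 CPM, within the C57BL/6 range. The fourth Winnie female had 0.368 CPM, and the males of replicates 1, 2 and 3 had 0.715, 0.128 and 0.231 CPM, from 4 to 26 reads. The 3 libraries that kept Slc30a10 were also those with the highest colonocyte marker sums of the group, at 10295 to 10466 CPM, against 3553 to 7313 CPM in the other 4. The part of colonocyte RNA in this split was not tested. C57BL/6 males had 12.5 to 32.1 CPM and females 4.35 to 32.4 CPM, and Winnie-Prolapse males and females overlapped (0.226 to 0.888 and 0.242 to 1.18 CPM). The sex by group interaction, which asks whether Winnie differed from C57BL/6 by another amount in females than in males, was 4.95 ± 1.27 log2 units for Slc30a10. In males alone, the log2 fold change was -6.01 ± 0.56 in Winnie against C57BL/6 and 0.28 ± 0.72 in Winnie-Prolapse against Winnie. In females alone, the corresponding values were -1.08 ± 0.92 and -3.68 ± 1.12. The split by sex was seen in the values that chose the set, so it is a description with no test.

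Slc30a10 was also set against the epithelial markers of its own library, again as a description. It equalled 0.0433% to 0.354% of the summed pan-epithelial level in C57BL/6, 0.00121% to 0.165% in Winnie and 0.00216% to 0.0110% in Winnie-Prolapse. Against the colonocyte sum, which was itself lower in Winnie-Prolapse, the values were 0.0399% to 0.356%, 0.00361% to 0.142% and 0.00400% to 0.0317%. On both scales Winnie overlapped with C57BL/6 and Winnie-Prolapse did not. Against the colonocyte sum without Krt20, chosen after seeing the data, C57BL/6 (0.0498% to 0.378%) and Winnie-Prolapse (0.00571% to 0.0589%) overlapped, with medians of 0.300% and 0.0242%. The difference in medians was smaller against the colonocyte sum (0.277% and 0.0128%) than against the pan-epithelial sum (0.271% and 0.00341%).

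**Figure D2:**
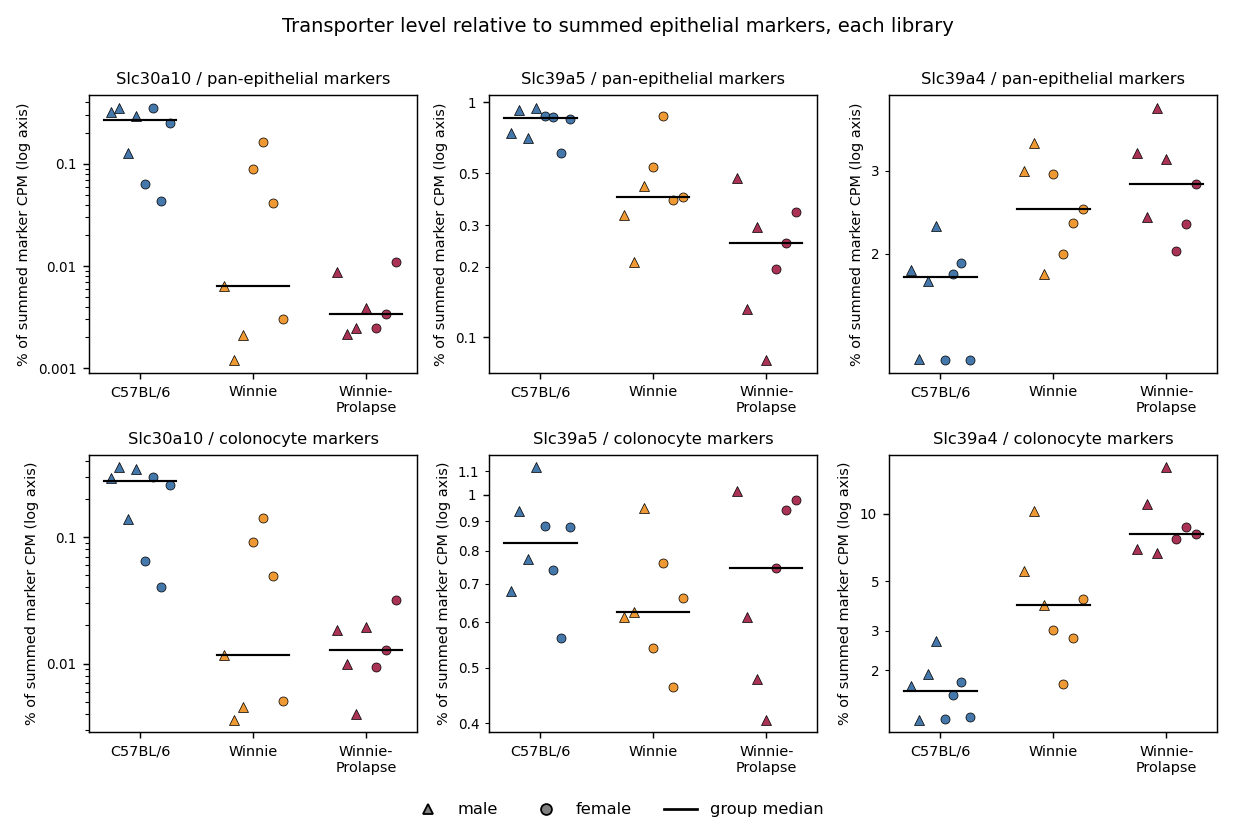
Slc30a10, Slc39a5 and Slc39a4 as a percentage (log axes) of the summed CPM of pan-epithelial markers (top) and all 7 colonocyte markers (bottom) in each library; triangles are males, circles are females and bars are medians. C57BL/6 and Winnie-Prolapse do not overlap for Slc30a10 in either row, and for Slc39a5 they overlap in the bottom row.

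Slc30a1 (ENSMUSG00000037434, chr1:191906767-191913247, plus strand), the zinc exporter of the plasma membrane, passed no test between the groups. It ranged from 33.1 to 104 CPM (median 42.8) in C57BL/6, from 34.5 to 48.6 CPM (median 39.2) in Winnie and from 26.2 to 50.2 CPM (median 34.4) in Winnie-Prolapse, with overlap throughout. The highest value belonged to C57BL/6 replicate 7. Relative to C57BL/6, the log2 fold change was -0.22 ± 0.21 in Winnie (adjusted p = 0.461, 95% interval -0.67 to 0.23) and -0.39 ± 0.24 in Winnie-Prolapse (adjusted p = 0.189, interval -0.90 to 0.13). Without C57BL/6 replicate 7 the Winnie value was 0.02, on the other side of 0, and the Winnie-Prolapse value was -0.13 ± 0.17 (adjusted p = 0.532).

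Slc39a4 (ENSMUSG00000063354, chr15:76612383-76617384, minus strand), the apical zinc importer whose loss in humans causes the zinc deficiency disease acrodermatitis enteropathica, was higher in both diseased groups. It ranged from 107 to 192 CPM (median 169) in C57BL/6, from 178 to 366 CPM (median 304) in Winnie and from 164 to 503 CPM (median 300.3) in Winnie-Prolapse. Of the Winnie libraries, only replicate 5 lay within the C57BL/6 range, and of the Winnie-Prolapse libraries only replicate 6. Milk protein transcripts took up 179624 CPM of that last library, which lowers the CPM of all its other genes. The log2 fold change was 0.97 ± 0.19 in Winnie (adjusted p = 0.00467, 1.96-fold) and 1.02 ± 0.22 in Winnie-Prolapse (adjusted p = 0.00142, 2.03-fold). Both passed an adjusted p limit of 0.05 with at least a 1.5-fold change, and neither passed the 0.001 limit of the study. Without Winnie replicate 5 the adjusted p in Winnie was 0.000779, and without Winnie-Prolapse replicate 6 that in Winnie-Prolapse was 0.00095. Winnie-Prolapse and Winnie differed by 0.06 ± 0.24 (adjusted p = 0.893, interval -0.45 to 0.57), a sign that turned with sex as a covariate. As a share of the colonocyte markers, it had medians of 1.62% (C57BL/6), 3.89% (Winnie) and 8.08% (Winnie-Prolapse), or 1.74%, 4.93% and 16.1% without Krt20. The marker sum was itself lower in disease, and against the pan-epithelial sum the medians were 1.78%, 2.49% and 2.82%.

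Slc39a5 (ENSMUSG00000039878, chr10:128395931-128401229, minus strand), a zinc importer of the basolateral membrane of enterocytes, was lower in Winnie-Prolapse. The C57BL/6 libraries lay close together at 61.3 to 84.4 CPM (median 78.9). Winnie libraries ranged from 22.2 to 78.3 CPM (median 48.3) and Winnie-Prolapse libraries from 7.57 to 48.9 CPM (median 20.7). The Winnie-Prolapse range was entirely below that of C57BL/6, and a single Winnie library, replicate 5, lay inside it. The log2 fold change in Winnie-Prolapse was -1.43 ± 0.31 (adjusted p = 0.00138, 2.70-fold lower), past the 0.05 limit. In Winnie it was -0.56 ± 0.18 (adjusted p = 0.0356), 1.48-fold and so under the 1.5-fold limit. It passed both limits without TMM factors (-0.65), by limma-voom (-0.65), with at least 10 counts in every library (-0.60), with sex as a covariate (-0.63), and without C57BL/6 replicate 7 (-0.60) or Winnie replicate 4 (-0.61) or 5 (-0.70, adjusted p = 0.00601). Not every setting kept the adjusted p of Slc39a5 in Winnie under 0.05. Its highest value was 0.177 among the other fits of both sexes and 0.0796 with each library left out. In males alone the log2 fold change was -1.07 ± 0.22 (adjusted p = 0.0091) and in females alone -0.27 ± 0.15 (adjusted p = 0.368). The sex by group interaction was 0.80 ± 0.61 (adjusted p = 0.570). Between the diseased groups the log2 fold change was -0.87 ± 0.38 (adjusted p = 0.149). As a share of the colonocyte markers the groups overlapped, with 0.563% to 1.12% in C57BL/6, 0.462% to 0.949% in Winnie and 0.406% to 1.02% in Winnie-Prolapse. Without Krt20 they also overlapped, with medians of 0.881% (C57BL/6), 0.924% (Winnie) and 1.44% (Winnie-Prolapse). Against the pan-epithelial markers C57BL/6 (0.611% to 0.950%) and Winnie-Prolapse (0.0801% to 0.477%) remained apart. Ankrd52 overlaps Slc39a5 on the other strand.

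Slc39a8 (ENSMUSG00000053897, chr3:135825279-135888572, plus strand) carries zinc and manganese into cells. Its C57BL/6 range was 9.61 to 27.4 CPM (median 16.7) and its Winnie range 13.6 to 31.6 CPM (median 19.1). In Winnie-Prolapse 6 libraries had 16.2 to 25.6 CPM, and replicate 6, the library with milk protein transcripts, had 228 CPM. The log2 fold change in Winnie-Prolapse against C57BL/6 was 1.82 ± 0.61 with this library (adjusted p = 0.0205) and 0.35 ± 0.20 without it (adjusted p = 0.163). With all libraries, DESeq2 gave 0.33 (adjusted p = 0.183) and limma-voom 0.87 (adjusted p = 0.149). The group mean was 50.2 ± 78.6 CPM (SD, n = 7) with it and 20.6 ± 3.44 CPM (SD, n = 6) without it. The difference between the groups thus rested on this single animal. In Winnie the value was 0.34 ± 0.22 (adjusted p = 0.255). Between Winnie-Prolapse and Winnie it was 1.49 ± 0.64 (adjusted p = 0.146) with replicate 6 and 0.0013 ± 0.17 (adjusted p = 0.997) without it.

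Slc39a14 (ENSMUSG00000022094, chr14:70303469-70351425, minus strand), which carries manganese, zinc and iron into cells, overlapped between all groups. It ranged from 34.6 to 53.6 CPM (median 43.0) in C57BL/6, from 28.8 to 49.0 CPM (median 39.5) in Winnie and from 29.7 to 87.8 CPM (median 39.3) in Winnie-Prolapse. Winnie-Prolapse replicates 4 and 6 had 87.8 and 85.7 CPM, and the other 5 had 29.7 to 47.0 CPM. The log2 fold change was -0.08 ± 0.11 in Winnie (adjusted p = 0.597, interval -0.32 to 0.15) and 0.33 ± 0.24 in Winnie-Prolapse (adjusted p = 0.257, interval -0.18 to 0.83). Without replicate 6 the Winnie-Prolapse value was 0.09 ± 0.19.

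Of the metallothioneins, Mt2 was higher in Winnie-Prolapse and Mt1 did not pass a test. Mt1 (ENSMUSG00000031765, chr8:94179082-94180327, plus strand) ranged from 87.0 to 259 CPM (median 141) in C57BL/6, from 82.3 to 356 CPM (median 160.1) in Winnie and from 104 to 286 CPM (median 196) in Winnie-Prolapse. Its log2 fold change was 0.15 ± 0.30 in Winnie (adjusted p = 0.734, interval -0.49 to 0.79) and 0.31 ± 0.28 in Winnie-Prolapse (adjusted p = 0.366, interval -0.29 to 0.91). Mt2 (ENSMUSG00000031762, chr8:94172664-94173568, plus strand) lies just upstream of Mt1 on the same strand. It ranged from 15.9 to 94.4 CPM (median 31.8) in C57BL/6, from 21.8 to 169 CPM (median 62.1) in Winnie and from 41.0 to 149 CPM (median 131) in Winnie-Prolapse. The ranges overlapped, but 4 of the 7 Winnie-Prolapse libraries lay above the highest C57BL/6 library. The log2 fold change of Mt2 was 1.37 ± 0.39 in Winnie-Prolapse (adjusted p = 0.00843, 2.59-fold), past the 0.05 limit, and 0.82 ± 0.44 in Winnie (adjusted p = 0.180). In Winnie the value of Mt2 was -0.10 ± 0.55 in males alone and 1.22 ± 0.49 in females alone, and that of Mt1 was -0.24 ± 0.34 and 0.30 ± 0.36. Gm45774 overlaps Mt2 on the other strand, and how reads shared between Mt1 and Mt2 were counted is not given in the sources used here.

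The number of Mt2 reads per Mt1 read does not depend on library size or scaling, and was looked at after the values of both genes had been seen. It ranged from 0.149 to 0.413 (median 0.262) in C57BL/6, from 0.219 to 0.598 (median 0.423) in Winnie and from 0.343 to 0.738 (median 0.605) in Winnie-Prolapse. The mean log2 ratio was higher than in C57BL/6 by 0.67 in Winnie and by 1.16 in Winnie-Prolapse. It was 0.49 higher in Winnie-Prolapse than in Winnie. With each library left out in turn, these differences ranged from 0.57 to 0.81, from 1.06 to 1.28 and from 0.35 to 0.61. As the ratio was chosen after the values were seen, no test is given.

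**Figure D3:**
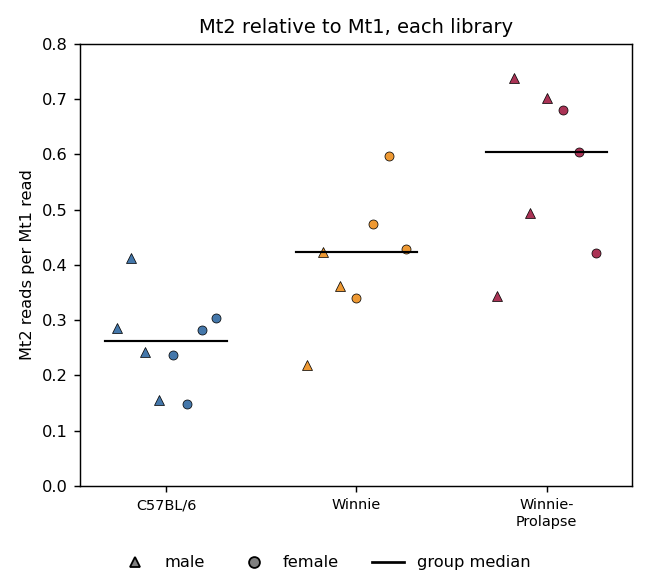
Mt2 reads per Mt1 read in each library by group, on a linear axis from 0; triangles are males, circles are females and bars are medians. The medians are 0.262, 0.423 and 0.605, and the ranges of neighbouring groups overlap.

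Of the 7 genes other than Slc30a10, 0 were called in Winnie against C57BL/6 by edgeR at an adjusted p under 0.001 and 1.5-fold, where 0.0925% of 17289 genes were called. There were 2 at an unadjusted p under 0.05, as were 39.9% of genes, while DESeq2 called 1, Slc39a4, and 5.84% of genes, and limma-voom called 0 (0% of genes). At an adjusted p under 0.05, 1 was higher (Slc39a4) against a background of 7.42% of genes higher and 15.9% in either direction. None of the 7 separated these groups without overlap, which 1.64% of genes did. In Winnie-Prolapse against C57BL/6, edgeR called 0 of the 7 at 0.001, beside 18.3% of 17397 genes, with 4 at an unadjusted p under 0.05 (58.5% of genes), 2 called by DESeq2 (Slc39a4 and Slc39a5, beside 21.2% of genes) and 1 by limma-voom (Slc39a5, beside 17.6%). At 0.05, 3 were higher (Slc39a4, Slc39a8 and Mt2) and 1 lower (Slc39a5), beside 16.7% of genes higher and 17.7% lower. For 1 of the 7, Slc39a5, the groups did not overlap and Winnie-Prolapse was lower, which held for 9.45% of genes. Between Winnie-Prolapse and Winnie, edgeR called 0 of the 7 at either limit, where it called 0% and 6.99% of genes. DESeq2 called 0 at 0.001 (3.09% of genes), limma-voom called 0 (0% of genes), and 2 had an unadjusted p under 0.05 (27.8% of genes). None of the 7 separated these groups without overlap, beside 0.962% of genes. The median log2 fold change over the 7 genes was 0.15 in Winnie and 0.33 in Winnie-Prolapse against C57BL/6, beside -0.01 over all genes tested in each. These comparisons share the C57BL/6 libraries. Because members were chosen with results known, nothing is read from their count.

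**Figure D4:**
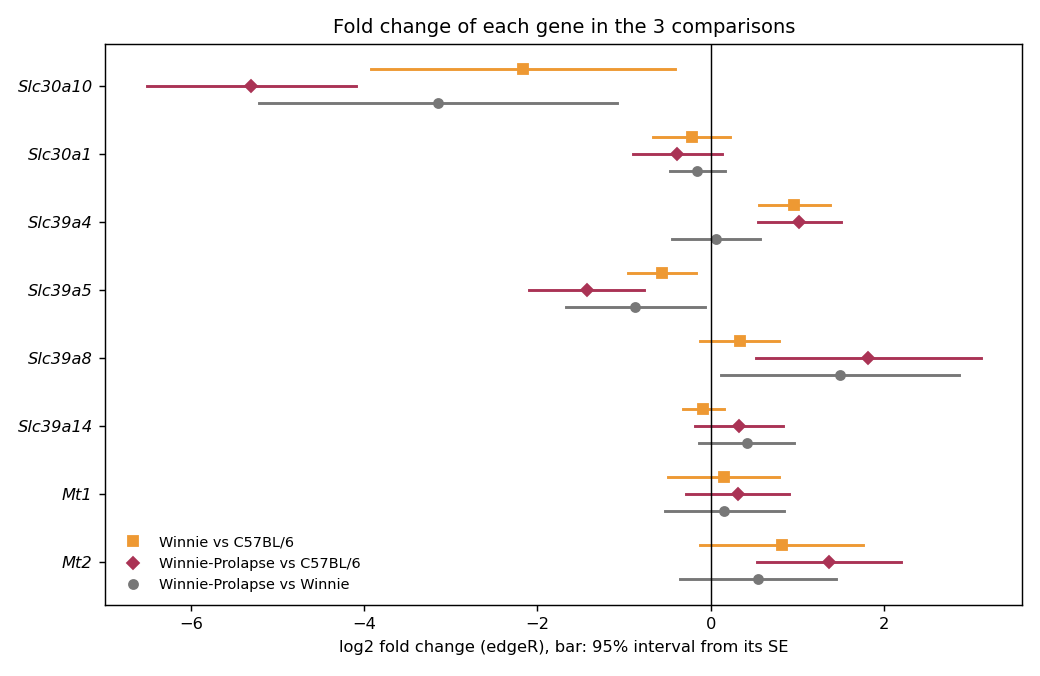
Log2 fold change of the 8 genes in the 3 comparisons (squares, Winnie against C57BL/6; diamonds, Winnie-Prolapse against C57BL/6; circles, Winnie-Prolapse against Winnie), with 95% intervals. Slc30a10 lies lowest at -5.30, Slc39a4 lies near 1 in both diseased groups, and the wide Slc39a8 interval reflects 1 library.

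Adjusting for group in all 22 libraries, edgeR called no difference between the sexes for any of the 7 genes other than Slc30a10. The log2 difference of females from males ranged from -0.25 ± 0.18 for Slc39a4 to 0.78 ± 0.42 for Slc39a8, with adjusted p from 0.966 to 0.99 by edgeR and 0 of the 7 at an unadjusted p under 0.05. The backgrounds were 0.0788% of genes called and 4.37% at that unadjusted p. In Winnie-Prolapse the sex by group interaction of Slc39a8 was 2.20 ± 0.86 (unadjusted p = 0.0189, adjusted p = 0.96, with 0% of genes called by edgeR) and -0.22 ± 0.46 without its highest library, the female of replicate 6.

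The other genes of metal handling were followed through 44 named genes in 7 lists, of which 40 passed the filter on low counts in Winnie-Prolapse against C57BL/6. By edgeR, 9 of these 40 were called at an adjusted p under 0.001, 8 higher and 1 lower, and 17 at 0.05, beside backgrounds of 18.3% and 34.4% of all genes, and 28 had an unadjusted p under 0.05, beside 58.5%. In Winnie against C57BL/6, 0 of 38 were called at 0.001, with 18 at an unadjusted p under 0.05 (39.9% of all genes), 6 at an adjusted p under 0.05 (15.9%) and 6 by DESeq2 at 0.001 (5.84%). Between the diseased groups 0 of 40 were called at 0.001, with 17 at an unadjusted p under 0.05 (27.8% of all genes), 9 at an adjusted p under 0.05 (6.99%) and 4 by DESeq2 at 0.001 (3.09%).

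Among the other SLC30 genes, 1 of 6 tested was called. Slc30a7, which loads zinc into the early secretory pathway, had 56.1 to 69.5 CPM in C57BL/6, 64.9 to 102 CPM in Winnie and 75.6 to 109 CPM in Winnie-Prolapse. Its log2 fold change was 0.75 ± 0.08 in Winnie-Prolapse (adjusted p = 4.84e-06) with no overlap, and 0.47 ± 0.09 in Winnie (adjusted p = 0.00395), under the fold limit. Slc30a5, which acts in the same pathway, had 0.34 ± 0.07 in Winnie-Prolapse (adjusted p = 0.000629), also under the fold limit, and Slc30a4 0.26 ± 0.19 (adjusted p = 0.268). Slc30a2, a zinc transporter of the lactating mammary gland, was singled out after its values were seen. It had 15.0 CPM in Winnie-Prolapse replicate 6 and 0.503 to 1.55 CPM in the other 6 libraries of that group, against 0.109 to 0.513 CPM in C57BL/6. Its log2 fold change was 3.41 ± 0.75 (adjusted p = 0.00146) with that library and 1.74 ± 0.31 (adjusted p = 0.000366) without it.

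Among the other SLC39 genes, 1 of 9 tested was called. Slc39a11, a zinc importer of intracellular membranes, had 50.1 to 71.1 CPM in C57BL/6, 63.5 to 97.3 CPM in Winnie and 72.3 to 98.6 CPM in Winnie-Prolapse. Its log2 fold change was 0.70 ± 0.10 in Winnie-Prolapse (adjusted p = 6.79e-05) and 0.57 ± 0.11 in Winnie (adjusted p = 0.00395), the latter 1.49-fold and under the fold limit. Slc39a1, a plasma membrane zinc importer, was higher in every Winnie-Prolapse library (138 to 194 CPM) than in any C57BL/6 library (104 to 137 CPM) but by only 1.41-fold (0.50 ± 0.08, adjusted p = 0.000116). Slc39a9 had -0.20 ± 0.12 in Winnie-Prolapse (adjusted p = 0.182).

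Of the remaining metallothioneins and the zinc sensor, Mt4, the metallothionein of stratified squamous epithelium, was called. It had 0 to 8 reads in C57BL/6 (0 to 0.265 CPM), 0.0984 to 0.949 CPM in Winnie and 1.03 to 20.3 CPM in Winnie-Prolapse, with a log2 fold change of 6.09 ± 0.77 in Winnie-Prolapse (adjusted p = 1.43e-05; 5.38 without Winnie-Prolapse replicate 2 and 6.68 without C57BL/6 replicate 8). The 6 markers of squamous epithelium moved with the group: their sum was 1.98 to 2.89 CPM in C57BL/6, 1.77 to 44.4 CPM in Winnie and 2.12 to 2691 CPM in Winnie-Prolapse, and Ivl, singled out after its values were seen, was at 0 in every C57BL/6 library. The part of squamous tissue in the Mt4 level was not tested. Mtf1, the zinc sensor that acts on Mt1, Mt2 and Slc30a1, had 0.50 ± 0.11 in Winnie-Prolapse (adjusted p = 0.00144), under the fold limit. Mt3 had -0.87 ± 0.48 (adjusted p = 0.134) and, without C57BL/6 replicate 7, -0.21 ± 0.31 (adjusted p = 0.583).

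Of 9 other manganese and iron carriers, Slc11a1, a metal pump of the phagosomes of macrophages and neutrophils, was called. It had 0.869 to 2.13 CPM in C57BL/6, 1.87 to 8.94 CPM in Winnie and 5.66 to 21.2 CPM in Winnie-Prolapse, with 2.78 ± 0.28 in Winnie-Prolapse (adjusted p = 1.96e-06). Macrophage markers moved with it, from a median sum of 50.1 CPM in C57BL/6 to 76.1 CPM in Winnie and 140 CPM in Winnie-Prolapse, and their part was not tested. Slc40a1, the only known cellular iron exporter, had 97.7 to 516 CPM in C57BL/6 and 44.2 to 185 CPM in Winnie-Prolapse (-1.63 ± 0.36, adjusted p = 0.00138). Its lowest C57BL/6 value was that of replicate 7, and without that library the adjusted p was 0.000226. Tfrc, the transferrin receptor, had 1.18 ± 0.33 (adjusted p = 0.00692) and, also without that library, 1.46 ± 0.29 (adjusted p = 0.000697).

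All 4 genes for secreted metal-binding proteins of host defence were called in Winnie-Prolapse. S100a8 and S100a9, which form the zinc- and manganese-binding protein calprotectin, had medians of 0.11 and 0.0735 CPM in C57BL/6 and of 78.9 and 60.5 CPM in Winnie-Prolapse. Ltf, encoding the iron-binding lactoferrin, went from 0.359 to 97.7 CPM, and Lcn2, encoding a protein that binds iron-carrying siderophores, from 0.963 to 49.7 CPM. Their log2 fold changes were from 7.96 ± 1.0 (Lcn2, adjusted p = 1.44e-05) to 9.78 ± 0.93 (S100a9, adjusted p = 1.21e-06), with no overlap between groups. Without Winnie-Prolapse replicate 6, Lcn2 had 6.43 and Ltf 8.40, and S100a9 had 9.02 without Winnie-Prolapse replicate 4 and 10.41 without C57BL/6 replicate 5. S100a8 and S100a9 are abundant in neutrophils, whose 7 markers, these 2 included, summed to a median of 287 CPM in C57BL/6 and 730 CPM in Winnie-Prolapse, with Ly6g as the main part of the sum. Of the 5 neutrophil markers that passed the filter, 4 were called higher, and the median log2 fold change of the 5 was 9.25. The part of neutrophils was not tested. None of the 6 copper genes was called at 0.001 in the edgeR test of all libraries, and 3 were at an adjusted p under 0.05 (Atp7a higher, Atp7b and Ccs lower, named after their values were seen). Ccs was called at 0.001 by DESeq2, by limma-voom, without TMM factors, with all groups in one fit and without Winnie-Prolapse replicate 3. Without C57BL/6 replicate 7, edgeR called both Atp7b (-1.66, adjusted p = 4.95e-05) and Ccs (-0.68, adjusted p = 0.000942). The 2 most abundant, the importer Slc31a1 and the chaperone Atox1, had -0.08 ± 0.11 (adjusted p = 0.549) and 0.07 ± 0.11 (adjusted p = 0.641). Of the vitamin D list, Vdr, the vitamin D receptor, fell by 1.35 ± 0.24 on the log2 scale (adjusted p = 0.00029), from 445 to 904 CPM in C57BL/6 to 119 to 366 CPM in Winnie-Prolapse. The calcium channel Trpv6 had 0.31 ± 0.57 (adjusted p = 0.661) and the calcium-binding S100g -1.35 ± 0.63 (adjusted p = 0.0834; -1.54 ± 0.49, adjusted p = 0.0157, without C57BL/6 replicate 7).

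**Figure D5:**
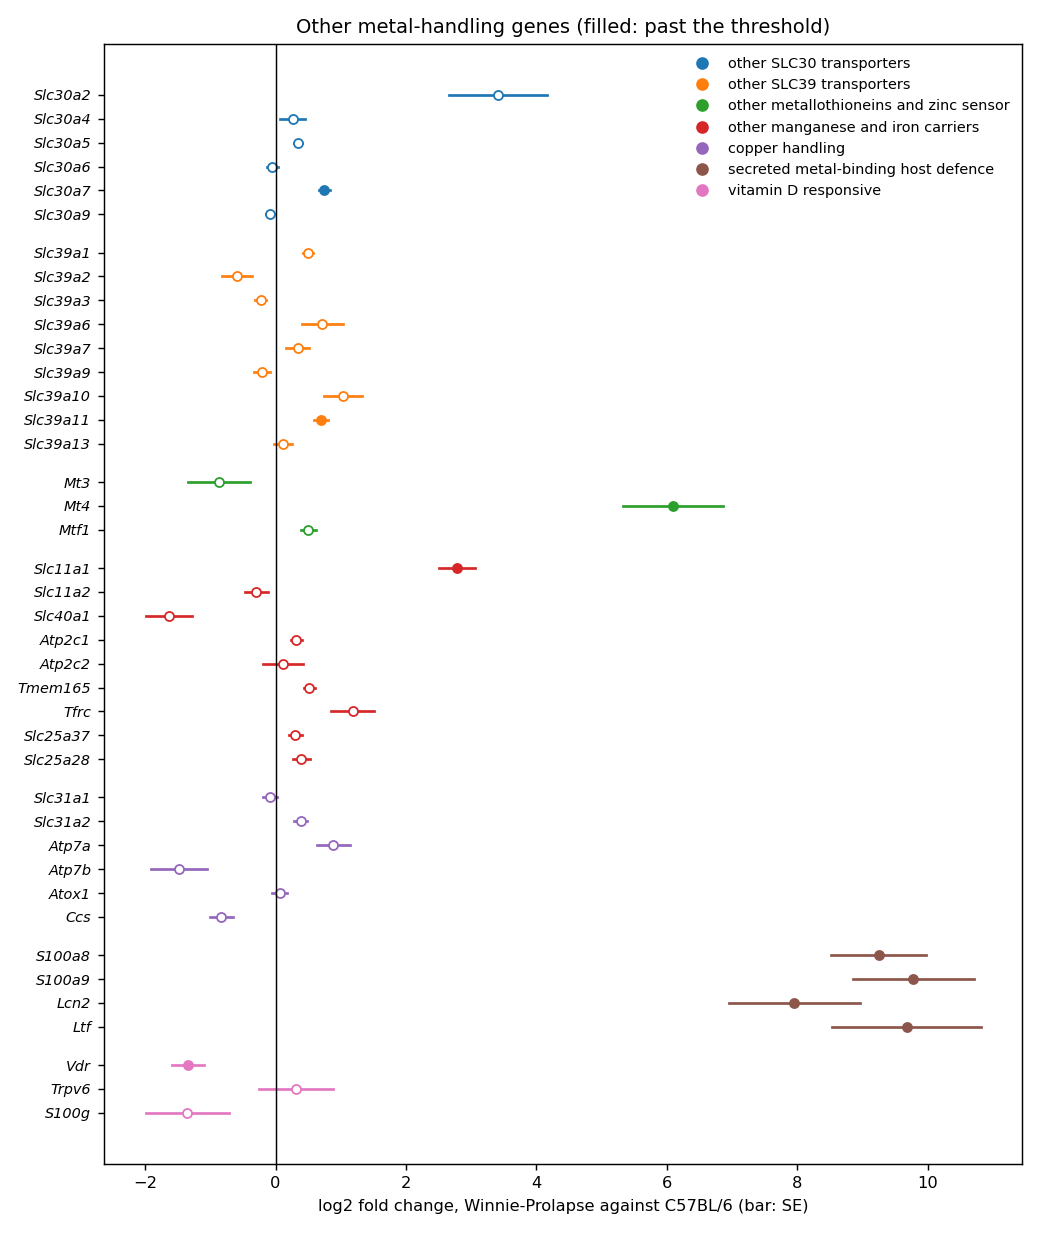
Log2 fold change in Winnie-Prolapse against C57BL/6 of 40 other metal-handling genes, coloured by list, with SE bars; filled points passed an adjusted p of 0.001 and 1.5-fold. The 4 secreted metal-binding genes lie at 7.96 to 9.78, Mt4 lies at 6.09, and most transporters lie between -1 and 1.

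The genes whose levels varied most like Slc30a10 were sought among 13597 genes by Pearson's r over the 22 libraries, after the mean of each group had been subtracted from log2 CPM. These values are a description, since the libraries share depth and tissue makeup. Pck1, the gluconeogenic enzyme PEPCK, came first (r = 0.857), followed by Meis3 (0.822), Klk1 (0.819), Prcp (0.818) and 9030622O22Rik (0.811). Pck1 had medians of 171, 54.2 and 17.3 CPM in C57BL/6, Winnie and Winnie-Prolapse, and Klk1, a kallikrein protease, 896, 406 and 102 CPM. Among the other 7 members, r ranged from -0.19 for Slc30a1 to 0.514 for Slc39a5. Of the metal genes named above that reached the level limit, the values ran from -0.776 for S100a8 to 0.58 for Slc40a1. The 2 most abundant markers of each list gave 0.634 (Slc26a3) and 0.50 (Car4) for colonocytes and 0.581 (Fcgbp) and 0.175 (Muc2) for goblet cells. Those of the pan-epithelial list gave -0.228 (Krt8) and -0.19 (Krt19). Signs differed within these lists, whose other markers were named after their values were seen. The other pan-epithelial markers gave 0.164 (Epcam), 0.102 (Cdh1), -0.044 (Vil1) and -0.259 (Krt18). The other colonocyte markers ran from -0.218 (Krt20) to 0.433 (Car1), with only Krt20 negative. The other goblet cell markers ran from -0.032 (Spdef) to 0.742 (Clca1), with only Spdef negative. For neutrophils the 2 most abundant gave 0.269 (Ly6g) and -0.755 (S100a9), and for macrophages -0.111 (Csf1r) and -0.512 (Mrc1). Smooth muscle gave -0.406 (Myh11) and -0.117 (Tagln), and fat cells 0.306 (Fabp4) and 0.047 (Cidec). For squamous epithelium and mammary gland 1 gene each reached the level limit, Krt14 (-0.137) and Csn2 (-0.016).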

How the data were processed

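A genomics service made stranded libraries of poly(A) RNA for the authors, sequenced them in paired ends and did the bioinformatics. RNAsik 1.5.4 was run on GRCm38, and the submitters' processing notes also name STAR and featureCounts. The deposited table holds raw read counts per gene, as whole numbers with no normalization; no library is pooled. The annotation release, the strand setting and the handling of shared reads are not given in the sources used here, so overlapping genes and gene families are uncertain. All value columns were matched to a sample by name. Log2 values are edgeR fits to the deposited counts. The methods of the study describe fewer Winnie mice than the labels and no prolapse group; groups here follow the labels. Replicates are separate mice per the labels, their numbers only name libraries, and the labels name no batch.

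Members were matched by symbol and followed by Ensembl identifier, with locations and exon lengths from GENCODE M21. CPM used library totals. Groups were compared with edgeR 4.0.16 in R 4.3.3 (quasi-likelihood F test, TMM, filterByExpr, Benjamini-Hochberg over all genes tested), each comparison on its own 2 groups and both sexes together. Adjusted p-values without a named tool are from this test, with SE of the log2 fold change and 95% intervals from its degrees of freedom. Calls needed an adjusted p under 0.001 and 1.5-fold, the limits of the study, or 0.05 and 1.5-fold as a second rule. Sex was tested in all 22 libraries, adjusting for group, and its interaction with group in a fit of both, at an adjusted p under 0.05. Alternatives were no TMM factors, DESeq2 1.42.0, limma-voom (limma 3.58.1), other low-count filters, all groups fitted together, adjustment for sex, each sex separately, other thresholds and leaving out each library. The Mt2 to Mt1 ratio, its leave-one-out values and the colonocyte sum without Krt20 were added after seeing the data. The test was checked on simulated data. Counting limits cover counting error only.

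Members and lists were chosen with earlier results of these data known. Named genes were the members; from each other metal list up to 4 called genes of largest change or, with fewer than 2 called, the 2 of highest mean CPM; 2 genes and the summed level from marker lists, given here as sums; and the 5 genes most like Slc30a10 with a mean log2 CPM (prior count 2) of at least 1. Any other gene is marked as named after its values were seen.

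Pairs of libraries within a group differed well beyond counting noise (lowest chi-square per degree of freedom 28.8), so none was counted as a duplicate.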

Additional observations from a re-analysis of the deposited data

Results flagged for a closer look

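A library far from the others of its group was looked for with Dixon's test in 27 sets of group values, including each member in each group. It marked 3 values, where chance alone marks about 1 set in 20.

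Slc30a1 had 104 CPM in C57BL/6 replicate 7, and the next highest library of the group had 59.5 CPM. The same library had the lowest Slc40a1 level of its group (97.7 CPM) and the highest Mt3 level (7.28 CPM). It had only 4.17 CPM over the neutrophil markers, a sum that is mainly Ly6g in C57BL/6.

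Slc39a8 had 228 CPM in Winnie-Prolapse replicate 6, and the next highest library had 25.6 CPM. The same library held 179624 CPM of milk protein transcripts and the highest Slc30a2 level (15.0 CPM).

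Mt1 had 356 CPM in Winnie replicate 5, and the next highest library had 183 CPM. This library also had the highest Slc30a10 (14.7 CPM), Slc39a5 (78.3 CPM) and Mt2 (169 CPM) levels among Winnie libraries and the lowest Slc39a4 level (178 CPM).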

How the results depend on the processing

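Outside leave-one-out and the fits of each sex alone, 164 of 165 member fold changes kept their direction; with each library left out 346 of 352 did, and in each sex alone 42 of 48. The 6 that turned were Mt1 (-0.24) and Mt2 (-0.10) in males in Winnie against C57BL/6 and, between Winnie-Prolapse and Winnie, Slc30a10 (0.28) and Slc39a8 (-0.023) in males and Slc39a4 (-0.26) and Mt1 (-0.093) in females. Between Winnie-Prolapse and Winnie, Slc39a4 turned to -0.0013 with sex as a covariate, -0.02 and -0.03 without Winnie replicates 3 and 5, and -0.16 without Winnie-Prolapse replicate 3 (range -0.16 to 0.14 with each library left out). Mt1 turned to -0.0218 without that last library (range -0.0218 to 0.43). In Winnie against C57BL/6, Slc30a1 turned to 0.0178 without C57BL/6 replicate 7 (range -0.29 to 0.0178) and Mt1 to -0.12 without Winnie replicate 5 (range -0.12 to 0.29). The following counts are over all 8 members, as fixed in the design, and nothing is read from calls of Slc30a10, which chose the set. In that comparison, the 0 members called became 1 at an adjusted p under 0.05, 1 by DESeq2 (both Slc39a4) and 1 in males alone (Slc30a10), and 0 to 1 with each library left out (1, Slc39a4, without Winnie replicate 5). The 0 other metal genes became 6 at 0.05, 6 by DESeq2 and 0 to 4 with each library left out (4 without Winnie replicate 5). Over all genes, the calls here went from 16 to 1227 by DESeq2, 130 in males alone and 677 without Winnie replicate 5. In Winnie-Prolapse against C57BL/6, the 1 member called (Slc30a10) became 5 at 0.05 and 3 by DESeq2 or with all groups in one fit, adding Slc39a4 and Slc39a5. It became 2 without TMM factors or by limma-voom, adding Slc39a5, and 0 in females alone. It was 0 with at least 10 counts in every library, where Slc30a10 was not tested for its few reads. Leaving out each library gave 1 to 2 (2 without Winnie-Prolapse replicates 1 or 4, adding Slc39a5, or 6, adding Slc39a4). The 9 other metal genes became 17 at 0.05, 5 with at least 10 counts, 0 in males alone, 3 in females alone and 8 to 13 with each library left out (13 without C57BL/6 replicate 7). Over all genes, the calls went from 3186 to 2548 with at least 10 counts, 307 in males alone, 255 in females alone, 5011 by DESeq2, 3563 with all groups in one fit, 3071 without TMM factors, 3054 by limma-voom, 3478 without C57BL/6 replicate 7 and 3003, 2743 and 2692 without Winnie-Prolapse replicates 1, 4 and 6. Between Winnie-Prolapse and Winnie the 0 other metal genes became 9 at 0.05 and 4 by DESeq2. In the sex by group interaction the 0 members became 1 by DESeq2, Slc30a10, and stayed at 0 with each library left out. No other fit of the interaction called Slc30a10, and the share of all genes that DESeq2 called there is not given here. As this split by sex was seen in the values that chose the set, nothing is read from the call. The causes were not tested. Without TMM factors the median fold change of all genes moved by -0.08, -0.07 and 0.006 in the 3 comparisons. No paired analysis was possible because replicate numbers follow the sample order and pair no animals between groups. At 6 to 32 reads, Slc30a10 levels within Winnie-Prolapse could not be ranked in full. Replicates 1 and 7 had 30 and 32 reads, above the 6 to 11 reads of the other libraries, which could not be ranked among themselves.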
